A study of Caenorhabditis elegans with 3 samples.

Results

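Binding of MEP-1 was examined at the aminoacyl-tRNA synthetase genes of Caenorhabditis elegans, defined as every protein-coding gene whose symbol is 1 letter followed by ars- and a digit. The Ensembl annotation of assembly WBcel235 held 32 such genes among 19973 protein-coding genes of the nuclear chromosomes. MEP-1 is a nuclear zinc-finger protein that works with LET-418, a chromatin remodeller of the Mi-2 family. It was mapped by ChIP-seq in whole L4 larvae, both sexes pooled, of strain OP102, whose genotype is unc-119(tm4063) III; wgIs102. The strain carries a transgene that expresses MEP-1 with a GFP-FLAG tag at its C terminus, per a note on replicate 3, and the precipitation was against eGFP, per the description. All 3 biological replicates belong to 1 group, so there was no comparison between conditions. Replicates 1 and 2 came from the CGC stock centre and have a size range of 150 to 350 in the labels, whereas replicate 3 came from another source, with a sonication note and no size range. Whole animals were used, so the cell types in which a region was occupied cannot be told apart. The lists give no read depth.

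Aminoacyl-tRNA synthetases attach each amino acid to its cognate tRNA and so supply the ribosome with charged tRNAs. Animals use one set of these enzymes in the cytosol and another in mitochondria, both encoded in the nucleus, and a few genes serve both compartments. The enzymes fall into class I and class II by the fold of the catalytic domain. In mammals, several of the cytosolic enzymes assemble into a multi-synthetase complex. Shortage of charged tRNA is sensed by the kinase GCN2, which acts through the transcription factor ATF4.

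Genes counted as bound if a point source (where the signal of a region peaks) fell inside a promoter window that reached from 500 bp before to 100 bp after any annotated transcription start site (TSS). In the authors' optimal list, which is filtered by the irreproducible discovery rate (IDR) for agreement of region ranks, 9 of the 32 synthetase genes (28.1%) were bound, against 12.7% of all protein-coding genes. They were ears-2, mars-1, fars-3, aars-1, nars-1, tars-1, hars-1, sars-2 and vars-1, in order of score, and each had 1 point source. The same call was made from each replicate's top regions, its 5167 highest-scoring distinct regions, a number equal to the distinct intervals of the IDR list. In replicates 1 and 2 it found 9 synthetase genes each, beside 12.9% and 12.4% of all protein-coding genes. In replicate 3 it found 6, beside 12.8%. The mean over replicates was 25% ± 5.41 for the synthetase genes (SD, n = 3) and 12.7% ± 0.256 for all protein-coding genes. Replicate 2 called the same 9 genes as the IDR list, replicate 1 called yars-2 and not hars-1, and replicate 3 called aars-2 but not fars-3, nars-1, sars-2 or vars-1. No test was made of the share, because the genes were chosen with earlier results of these data known and genes are not replicates.

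The share depended on how many replicates a region had to appear in. When each replicate had to have a top region overlapping the IDR region, 4 synthetase genes remained (12.5%), namely ears-2, mars-1, aars-1 and tars-1, against 8.73% of all protein-coding genes. Without replicate 1 the share was 15.6% (5 genes), without replicate 2 it was 12.5% (4 genes) and without replicate 3 it was 25% (8 genes). The corresponding shares of all protein-coding genes were 9.3%, 9.52% and 9.95%. Of the 9 bound regions, 5 (55.6%) lay among the top regions of replicate 3, compared with 81.3% for all bound protein-coding genes. In replicates 1 and 2 the numbers were 8 and 9 of 9, beside 89.2% and 86.5%. The source and library notes of replicate 3 move with this difference, and their part in it was not tested.

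**Figure D1:**
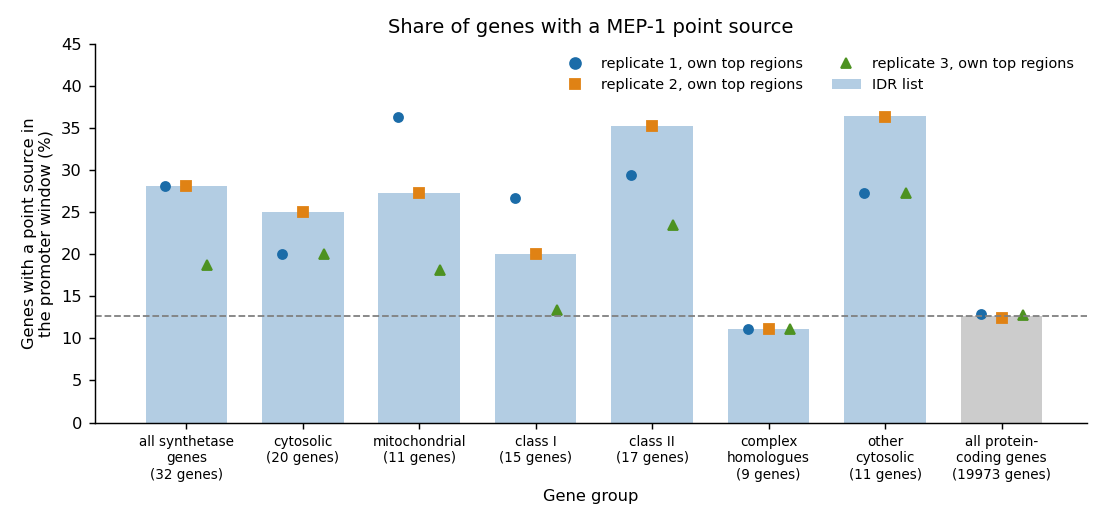
Percentage of genes with a MEP-1 point source in the promoter window (y axis) for groups of synthetase genes and for all protein-coding genes (x axis, number of genes in brackets). Bars give the IDR list, symbols give the 3 replicates' own top regions, and the dashed line marks the 12.7% of all protein-coding genes; the complex homologues, at 11.1% in every list, are the only synthetase group shown whose bar lies under that line.

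Binding was not confined to one compartment. The genes gars-1, hars-1, kars-1 and tars-1, which serve both compartments, were counted as cytosolic. Of 20 cytosolic synthetase genes, 5 were bound (25%; 21.7% ± 2.89 over replicates, SD, n = 3), namely fars-3, hars-1, mars-1, nars-1 and tars-1. Of 11 mitochondrial synthetase genes, 3 were bound (27.3%; 27.3% ± 9.09 over replicates), namely aars-1, ears-2 and sars-2. The remaining gene, vars-1, encodes a valine--tRNA ligase for which RefSeq names no compartment. The shares of the 2 compartments differed by less than 1 gene. For each group by compartment, class or complex, the share of all protein-coding genes to set beside it was 12.7% in the IDR list. Over replicates that share was 12.7% ± 0.256 (SD, n = 3). By enzyme class, 3 of 15 class I genes (20%) and 6 of 17 class II genes (35.3%) were bound. Over replicates the classes stood at 20% ± 6.67 and 29.4% ± 5.88 (SD, n = 3). In replicates 1, 2 and 3 there were 4, 3 and 2 of the 15 class I genes and 5, 6 and 4 of the 17 class II genes. Class II thus had the higher share in each replicate, but not for regions found in all 3 replicates. There 2 class I genes (13.3%) and 2 class II genes (11.8%) were bound, beside 8.73% of all protein-coding genes. Among the homologues of the mammalian multi-synthetase complex (ears-1, pars-1, iars-1, lars-1, mars-1, qars-1, rars-1, kars-1 and dars-1), mars-1 alone was bound, 1 of 9 (11.1%) in the IDR list and in each replicate. Of the 11 other cytosolic genes 4 were bound (36.4%), and 3, 4 and 3 in replicates 1, 2 and 3. This difference was not seen for regions found in all 3 replicates (11.1% and 9.09%, beside 8.73% of all protein-coding genes). Nor was it seen in a window of 1000 bp upstream to 200 bp downstream. There 4 of the 9 (44.4%) and 5 of the 11 (45.5%) were bound, beside 16.3% of all protein-coding genes. By chromosome, 4 of 8 synthetase genes on chromosome IV and 3 of 5 on II were bound, beside 11.6% and 10.7% of all genes there. On chromosome V 1 of 4 was bound, beside 8.47%, and on chromosome I 1 of 9 (11.1%), beside 17.2%. None of 6 on chromosome III was bound, where 18.5% of all genes were, and chromosome X held no synthetase gene.

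The strongest region lay at ears-2, which encodes the mitochondrial glutamyl-tRNA synthetase (chromosome IV, 390335 to 390635). Its point source was 23 bp upstream of the start, and its score, the authors' signal value, was 489 in the IDR list. The scores in replicates 1, 2 and 3 were 209, 207 and 78.8, at ranks 90, 115 and 201 of each list (mean rank 135 ± 58.2, SD, n = 3). It ranked first of the 9 in every replicate, and the next synthetase gene stood at rank 1228, 907 and 1978. The divergently transcribed gene uncp-18 starts 91 bp from ears-2, and the point source lay 69 bp upstream of its TSS, so it lay in the windows of both genes.

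At mars-1, the gene of cytosolic methionyl-tRNA synthetase (chromosome IV, 11635670 to 11635854), the point source lay 295 bp upstream and the IDR score was 180. Its scores in replicates 1, 2 and 3 were 68.4, 80.8 and 27.4, at ranks 1326, 1036 and 2027. At aars-1, which encodes the mitochondrial alanyl-tRNA synthetase (chromosome II, 11464463 to 11464866), the point source lay 168 bp upstream and the score was 139. Its scores were 59.7, 62.2 and 22.9, at ranks 1675, 1648 and 2753. In each of the 3 replicates mars-1 was the third and aars-1 the fourth of the 9. The region of mars-1 lay in the window of no other gene, whereas that of aars-1 also lay in the window of a gene on the other strand.

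The region of fars-3, the gene of the beta subunit of phenylalanyl-tRNA synthetase (chromosome II, 8464561 to 8464738), was centred 189 bp upstream and scored 171. Its scores in replicates 1, 2 and 3 were 71.7, 86.3 and 11.4, at ranks 1228, 907 and 7095. It was second of the 9 in replicates 1 and 2 and eighth in replicate 3. The other subunit gene, fars-1, had no point source in its window in the IDR list or any replicate's list, but it was called together with fars-3 in the window of 1000 bp upstream to 200 bp downstream, and replicate 3 called neither. The gene hars-1, which encodes histidyl-tRNA synthetase for cytosol and mitochondria and was counted as cytosolic (chromosome IV, 10858595 to 10858998, score 87.2), went the other way. Its scores were 23.1, 30.7 and 27.8, at ranks 6794, 4848 and 1978, last of the 9 in replicates 1 and 2 and second in replicate 3. Its point source lay 160 bp upstream and 301 bp upstream of the divergent gene T11G6.2.

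At tars-1, the gene of threonyl-tRNA synthetase, known to serve both compartments and counted here as cytosolic (chromosome II, 11694459 to 11694862, score 106), the scores were 33.3, 49.4 and 19.5, at ranks 4158, 2393 and 3513. The point source lay 368 bp upstream of the nearest tars-1 TSS but in an intron of the longest tars-1 transcript. It also lay in an intron of kel-1, a Kelch-repeat gene on the other strand, 167 bp upstream of an internal kel-1 TSS. It was the only one of the 9 point sources nearer to another gene, and with the outermost TSS alone tars-1 was not called. The mitochondrial seryl-tRNA synthetase gene sars-2 (chromosome IV, 4357279 to 4357682, score 84.2) had its point source 155 bp upstream. Its scores of 33.7, 34.5 and 13.3 stood at ranks 4091, 4123 and 5880. The weakest bound region was that of vars-1 (chromosome V, 8031178 to 8031581, score 72.5), 31 bp upstream, with scores of 28.9, 33.3 and 8.21 at ranks 5080, 4338 and 10392. The lowest score of any nuclear region in the IDR list was 62.2.

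**Figure D2:**
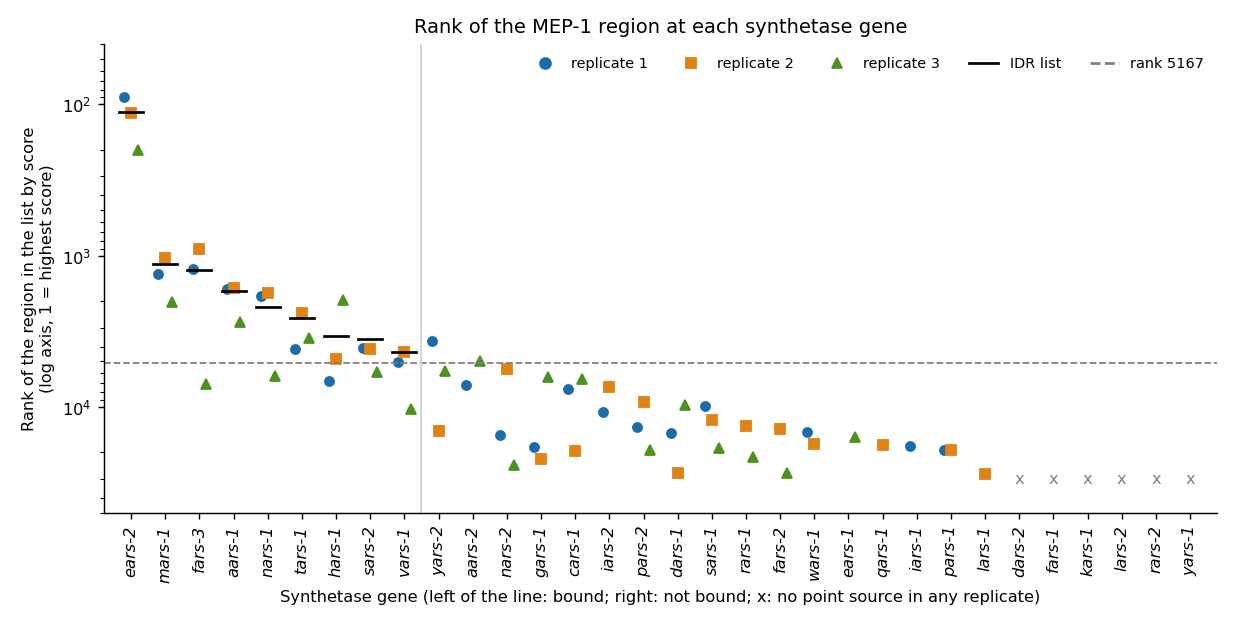
Rank by score (y axis, log scale, 1 is the highest score) of the MEP-1 region at each of the 32 synthetase genes (x axis). For bound genes the symbols are the replicate regions that overlap the IDR region, whose own rank is the black bar; for the others they are the best-scoring region of each replicate with a point source in the window. Left of the line ears-2 stands alone, with ranks from 90 to 201, and right of it only yars-2 and aars-2 have a symbol above rank 5167.

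Below ears-2 the order of the genes held in part: mars-1 stood above aars-1, and sars-2 above vars-1, in each of the 3 replicates, whereas fars-3 and hars-1 changed places between them. The mean rank was 1463 ± 510 for mars-1 and 2025 ± 630 for aars-1 (SD, n = 3). It was 3077 ± 3484 for fars-3, 3283 ± 2553 for nars-1 and 3355 ± 893 for tars-1. It was 4540 ± 2423 for hars-1, 4698 ± 1024 for sars-2 and 6603 ± 3302 for vars-1. Across the lists, neighbours in this order overlapped in their ranges of ranks, apart from ears-2 and mars-1. The median IDR score over the 9 regions was 119, beside 127 for the best regions of all bound protein-coding genes, and 4 of the 9 lay above the latter. The −log10 q-value given by the authors' caller was 3.07 for each of the 9 and did not separate them.

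Selected stretches at the point sources are shown because they carry the strongest regions (ears-2, mars-1), examples with a searched motif (aars-1, hars-1) and the genes whose rank varied most (fars-3) or whose point source lay nearer to another gene (tars-1). Each runs 5′ to 3′ on the strand of the gene, up to 60 bp to either side of the point source, cut where an annotated exon of a protein-coding gene begins, from the RefSeq sequence of WBcel235. The point source is base 61 of each, and capitals mark matches to the searched motifs.
ears-2 (chrIV:390469-390551, minus strand): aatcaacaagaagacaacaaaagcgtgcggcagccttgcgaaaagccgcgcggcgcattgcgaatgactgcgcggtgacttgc
mars-1 (chrIV:11635722-11635842, minus strand): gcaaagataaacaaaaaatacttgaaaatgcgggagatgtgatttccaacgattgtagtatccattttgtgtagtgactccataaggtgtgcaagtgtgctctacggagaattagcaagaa
aars-1 (chrII:11464605-11464725, minus strand): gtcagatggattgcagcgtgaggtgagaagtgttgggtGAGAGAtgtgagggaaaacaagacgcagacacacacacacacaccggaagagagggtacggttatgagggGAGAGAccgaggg
hars-1 (chrIV:10858737-10858857, plus strand): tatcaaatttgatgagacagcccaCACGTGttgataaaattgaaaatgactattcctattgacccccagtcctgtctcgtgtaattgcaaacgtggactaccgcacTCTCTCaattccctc
fars-3 (chrII:8464599-8464719, plus strand): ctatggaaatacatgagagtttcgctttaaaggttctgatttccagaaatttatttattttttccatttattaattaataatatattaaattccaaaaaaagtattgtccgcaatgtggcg
tars-1 (chrII:11694601-11694721, minus strand): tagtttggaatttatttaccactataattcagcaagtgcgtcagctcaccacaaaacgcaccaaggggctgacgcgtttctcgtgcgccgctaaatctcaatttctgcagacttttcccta
The 6 stretches differed in base composition, from 26.4% G and C at fars-3 to 56.6% at ears-2.

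Searched on both strands in the 100 bp at the point source, GAGAGA was found at 1 of the 9 synthetase points (aars-1), beside 22.6% of 2191 promoter points of all protein-coding genes. Its reverse complement in the hars-1 stretch lay outside these 100 bp. The E-box CACGTG was found at hars-1 alone, beside 3.83%. TTTGAA, the letters of the cell cycle homology region, was found at sars-2 alone, beside 17.8%, and TTTCAG, the letters of a worm 3′ splice site, was found at 1 point, beside 7.03%. No synthetase point held TGATGCAA (the core of the amino acid response element), TGACGTCA (the cyclic AMP response element), GGCGGGAA (an E2F site), GATAAG (the motif of GATA factors) or the box TATAAA, which were found at 0.639%, 1.46%, 0.776%, 6.48% and 6.85% of all promoter points. In the 300 bp from 250 bp before to 50 bp after the outermost TSS, TGATGCAA occurred at 1 of the 32 synthetase genes (iars-1, not bound), beside 1.2% of all protein-coding genes. GAGAGA occurred there at 7 of 32 (21.9%), beside 21.8%, and TATAAA at 8 of 32 (25%), beside 37.9%. TTTCAG occurred at 21 of 32 (65.6%), beside 51.7%, and TTTGAA at 18 of 32 (56.2%), beside 62.5%. GATAAG occurred at 3 of 32 (9.38%), beside 16.7%, and CACGTG at 1 of 32 (3.12%), beside 5.82%. TGACGTCA and GGCGGGAA occurred at none, beside 1.51% and 1.1%. None of the searched motifs contains another. The median G and C content at the 9 points was 40%, with a range from 22% to 60%, and the median over all promoter points was 45%.

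All 9 point sources lay upstream of the nearest TSS of their gene, from 368 bp to 23 bp, with a median position of −168 bp beside −186 bp for all protein-coding genes. None lay in an exon. Replicate point sources of a gene lay within 17 bp of each other at the closest and 128 bp at the widest. At mars-1 they were −298, −295 and −312 bp in replicates 1, 2 and 3, at hars-1 −160, −159 and −121 bp, and at tars-1 −375, −357 and −370 bp. At nars-1 they were spread further, at −292, −354 and −420 bp. At vars-1 they crossed the start, at −51, −31 and 39 bp.

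**Figure D3:**
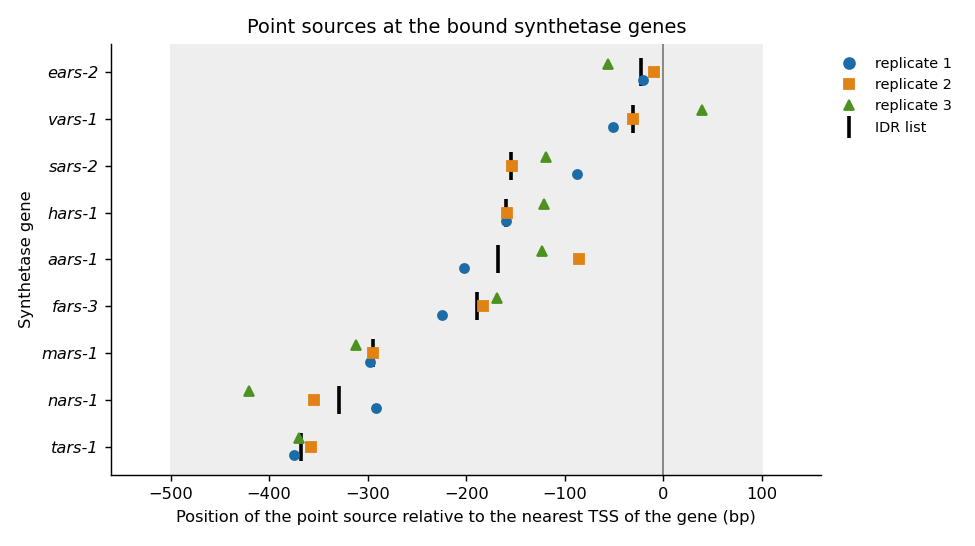
Position of the MEP-1 point source relative to the nearest TSS of each bound synthetase gene (x axis, bp, negative is upstream), with genes on the y axis. Black bars give the IDR list, symbols the 3 replicates and the shaded band the promoter window; the IDR points run from −368 bp at tars-1 to −23 bp at ears-2.

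Many bound synthetase genes shared their region with a neighbour. At 5 of the 9 (55.6%), aars-1, ears-2, hars-1, nars-1 and tars-1, the point source also lay in the window of another protein-coding gene, beside 36% of all bound protein-coding genes. Of the 12 synthetase genes whose nearest upstream gene within 1000 bp was on the opposite strand (overlapping genes included), 6 were bound (50%), beside 24.6% of the 4237 protein-coding genes so arranged. Of the 13 that followed a gene on the same strand within 1000 bp, 2 were bound (15.4%), beside 10.4% of 6132. These were fars-3, which begins 335 bp behind zyg-9, a microtubule-associated protein gene, and vars-1, which begins 196 bp behind oma-2, an oocyte maturation gene. Of the 7 with no gene within 1000 bp upstream, mars-1 was bound (14.3%), beside 8.9% of 9604. The ChIP signal alone cannot assign a shared region to either gene.

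The asparaginyl-tRNA synthetase gene nars-1, which encodes the cytosolic enzyme (chromosome I, 7090189 to 7090592, score 119), shared its region with nduf-6, a gene of mitochondrial complex I on the other strand. The point source lay 329 bp upstream of nars-1 and 349 bp upstream of nduf-6. Its scores in replicates 1, 2 and 3 were 56.1, 59.7 and 12.7, at ranks 1860, 1759 and 6231, so that replicate 3 again stood below the other two.

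The other 23 synthetase genes had no IDR point source in the window. Of these, yars-2, the mitochondrial tyrosyl-tRNA synthetase gene, came closest, with scores of 36.5, 13 and 13.4 at ranks 3654, 14520 and 5825 in replicates 1, 2 and 3. The cytosolic alanyl gene aars-2 had a region of rank 4946 in replicate 3 and 7172 in replicate 1, and none in replicate 2. The mitochondrial asparaginyl gene nars-2 reached rank 5621 in replicate 2, beside 15367 and 24162. At the other unbound genes the best regions ranked 6380 or lower, down to 27855 at lars-1. Among them were gars-1 (6380), cars-1 (6554), iars-2 (7408), pars-2 (9246), sars-1 (9839), fars-2 (13960) and wars-1 (14564). Taking each replicate's whole relaxed list of 30000 regions, which reaches into background by design, 26 of the 32 genes (81.2%) had a point source in at least 1 replicate, beside 40.3% of all protein-coding genes. No replicate's list had a point source at dars-2, fars-1, kars-1, lars-2, rars-2 and yars-1. These genes encode the mitochondrial aspartyl, leucyl and arginyl enzymes, the cytosolic phenylalanyl and tyrosyl enzymes, and the lysyl enzyme that serves both compartments.

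Several unbound genes had an IDR point source beyond the window but within 1000 bp upstream of a TSS. At iars-1, the cytosolic isoleucyl gene, a point source of score 75.9 lay 548 bp upstream, in the window of the divergent gene pges-2. At kars-1 a point source of score 117 lay 989 bp upstream, in the window of kat-1, a thiolase gene. At rars-1, the cytosolic arginyl gene, one of score 86.8 lay 989 bp upstream in the window of rpb-8, an RNA polymerase subunit gene on the same strand. At fars-1 one of score 216 lay 889 bp upstream in the window of rbm-5, and another of score 294 lay in an intron of fars-1, 1355 bp downstream of its nearest TSS, in the windows of a pseudogene and of the snoRNA gene T08B2.13. A window of 1000 bp upstream to 200 bp downstream therefore called 13 synthetase genes (40.6%), beside 16.3% of all protein-coding genes, and one of 200 bp upstream to 100 bp downstream called 6 (18.8%), beside 6.96%.

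Synthetase genes with symbols outside the rule were also looked up by their RefSeq product names. The valine--tRNA ligase gene glp-4 was bound (chromosome I, point source 448 bp upstream, score 87.4), with its region at ranks 4482, 3169 and 2806. Its replicate point source fell in the window in replicate 2 alone, so replicates 1 and 3 did not call it. The mitochondrial methionine--tRNA ligase gene Y105E8A.20 was bound in the IDR list with a score of 62.5, near the lowest of the list, at ranks 5892, 16372 and 6300, so in no replicate's top regions. The genes prx-10, given as a mitochondrial tryptophan--tRNA ligase, and K03B4.1, given as a seryl-tRNA synthetase, were not bound.

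The tRNA substrates of these enzymes were compared by amino acid. Of 612 nuclear tRNA genes, 607 had an amino acid in RefSeq, and tRNA genes with near-identical copies can share reads, so their calls are uncertain. For the 9 amino acids with a bound synthetase gene, 102 of 253 tRNA genes were bound (40.3%). For the other 11 amino acids, 138 of 353 were bound (39.1%). Threonine, with tars-1 bound, had 17 of 34 tRNA genes bound (50%; 46.1% ± 8.49 over replicates, SD, n = 3), whereas serine, with sars-2 bound, had 10 of 39 (25.6%; 32.5% ± 3.92). Glutamine and glycine, whose synthetase genes qars-1 and gars-1 were not bound, had 15 of 27 (55.6%) and 28 of 55 (50.9%). Over replicates their shares were 40.7% ± 3.7 and 49.7% ± 5.25 (SD, n = 3), beside 39.4% of all nuclear tRNA genes in the IDR list. The high place of glutamine was thus particular to the IDR list. The bound glutamine and glycine genes held 11 and 20 point sources, fewer than the genes, so some genes shared a point source. Amino acids with and without a bound synthetase gene were interspersed in the order of these shares. The median IDR share per amino acid was 41.5% for those with a bound synthetase gene and 35.9% for the others, a difference that was not tested. None of the 9 synthetase point sources lay in the window of a tRNA gene.

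**Figure D4:**
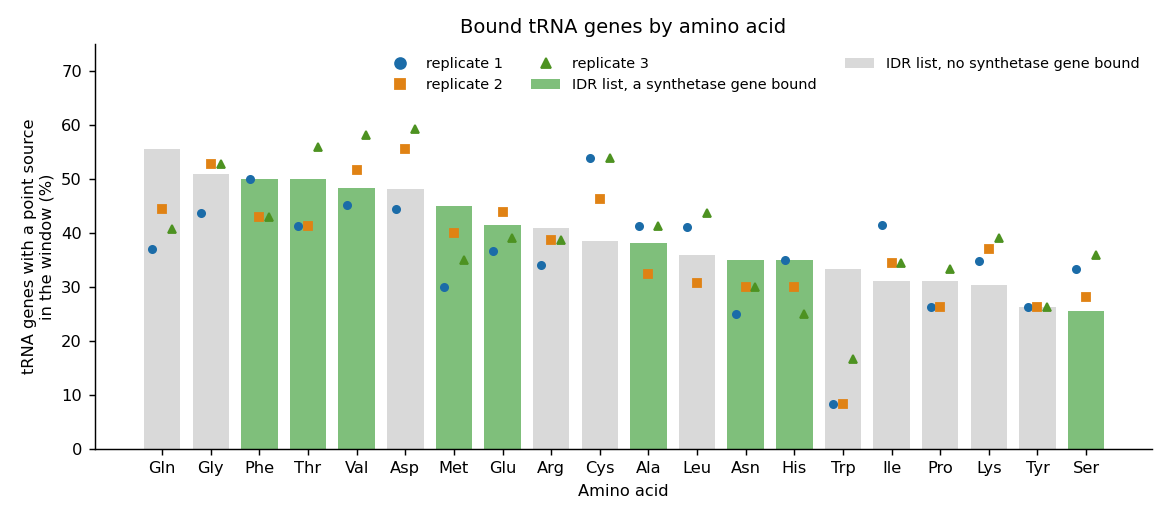
Percentage of the tRNA genes of each amino acid with a MEP-1 point source in the window (y axis) by amino acid (x axis). Green bars are amino acids with at least 1 bound synthetase gene and grey bars those with none, both from the IDR list, and symbols are the replicates' own top regions; green and grey bars are interspersed, from 55.6% for Gln to 25.6% for Ser.

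Among 9 genes listed for the response to amino acid starvation, 6 were bound (66.7%), beside 12.7% of all protein-coding genes. These were atf-4, the transcription factor of the response (score 166, ranks 2239, 1183 and 594 in replicates 1, 2 and 3), gcn-1 (score 133) and abcf-3 (score 149), both cofactors of GCN-2 signalling, and pek-1, the endoplasmic reticulum eIF2 kinase (score 110). Of these, gcn-1 and pek-1 were each called in 2 replicates, and their regions ranked 5467 and 5456 in replicate 3, below its top regions. Of the TOR branch, ragc-1, a Rag GTPase (score 170), and daf-15, the worm Raptor (score 98.9), were bound. The list was chosen with earlier results of these data known. The kinase gene gcn-2 itself, raga-1 and the TOR kinase gene let-363 were not. Of 22 genes of tRNA processing, modification and export, 5 were bound (22.7%), beside 12.7% of all protein-coding genes. These were mtcu-2, a mitochondrial tRNA modification gene (score 235), the pseudouridine synthase gene pus-1 (141), the exportin gene xpo-3 (109), dus-2 (63.6) and nsun-1 (62.6), known as an rRNA methyltransferase. The scores of dus-2 and nsun-1 lay near the lowest of the IDR list, 62.2. The region of nsun-1 was in the top regions of no replicate. The gene dus-2 was called in each replicate, but the best replicate 3 region overlapping its IDR region ranked 13724. Of 7 other genes tied to charged tRNA, 5 were bound (71.4%), beside 12.7% of all protein-coding genes. Among the 5 were glp-4 and tufm-1, each called in only 1 replicate. The elongation factor genes eef-1A.1 and eef-1A.2, whose products carry charged tRNA to the ribosome, had scores of 499 and 443, close to that of ears-2. Their mitochondrial counterparts tufm-1 and tufm-2 had scores of 66.6 and 117. The region of tufm-1 stood at ranks 6105, 8477 and 1698 in replicates 1, 2 and 3. The genes tsfm-1 and secs-1 were not bound.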

How the data were processed

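ChIP-seq of GFP-tagged MEP-1 was analysed in 3 biological replicates of 1 group. Per the labels, the authors deposited a relaxed region list for each replicate and for the pooled replicates, each with 30000 regions, made against a control, and an optimal IDR list of 5229 regions (5167 distinct intervals, 20 regions of them mitochondrial). Each deposited list holds a score for every region, whose scale is not stated, a −log10 q-value and a point source offset, as the authors' caller wrote them. Which aligner and peak caller were used, and with which settings or IDR cut-off, is not given in the sources used here. The control was not analysed here, and the read depth is unknown, so no interval for counting error is given. The labels do not say whether the replicates were separate cultures beyond calling them biological replicates.

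From these lists on build ce11 (the assembly WBcel235) point sources were set against the TSSs of Ensembl release 115 on the nuclear chromosomes with Python 3.11.15 and pysam 0.24.0. Regions overlapped when they shared at least 1 bp. To leave out 1 replicate, only IDR regions with an overlapping top region in both others were retained, without a new IDR run. Ranks are over distinct intervals by score. The lists on build ce10 were not used, for lack of an annotation on that build. The window call was tested on simulated data. Promoter sequence was read from the RefSeq genome of the same assembly, in place of the promoter table the design had named. All 32 members are named, neighbours where their window holds the same point source (1 neighbour is not reported here), and genes of the fixed lists when bound. Other genes of those lists are named where a contrast needs them, and the genes outside the symbol rule and the sequences shown were picked after their values were seen. Members, compartments and lists were chosen with earlier results of these data known, and 15 listed symbols (7 of tRNA processing, 8 related to synthetases) matched no gene and were dropped. Nothing was tested, so all shares are descriptions.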

Additional observations from a re-analysis of the deposited data

How the results depend on the processing

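No paired analysis was possible because there was 1 group and no test. Shares counted as moved when they changed by over 1.5 times. The share of all synthetase genes bound (28.1%) was 15.6% in the higher-scoring 50% of the IDR list, 12.5% for regions found in each of the 3 replicates, and 12.5% to 25% with 1 replicate left out. That of cytosolic genes (25%) was 45% in the wide window, 10% in the narrow window, 15% in those higher-scoring regions, 10% for regions of all 3 replicates, and 10% to 20% with 1 replicate left out. That of mitochondrial genes (27.3%) was 100% (3 of 3 genes) when genes close behind a same-strand gene were left out, which removed 8 of the 11. The share of all protein-coding genes (12.7%) was 6.96% in the narrow window and 7.76% in the higher-scoring regions. It was 16.3% in the wide window and 13.7% when genes close behind a same-strand gene were left out, neither of which counted as moved. Under every alternative listed, the share of all synthetase genes was above that of all protein-coding genes. The 2 came closest at 12.5% (4 genes) against 9.52% without replicate 2, and 12.5% (4 genes) against 8.73% for regions of all 3 replicates. For cytosolic genes the share was 10% against 9.52% without replicate 2. The alternatives reuse the same lists and are not independent checks. The pooled list gave the same 9 genes and scores, because the IDR regions are drawn from it. Naming the nearest gene among all annotated genes left 8 of 9 point sources with the synthetase gene, as among protein-coding genes. With 3 replicates and no depth, a region missing from a list cannot be told from one below its limit.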
